A study of Drosophila melanogaster with 33 samples.

Results

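The edited mRNAs of adult fly brain were compared between wild-type Atx2 and Atx2ΔmIDR, a form of Atx2 without its middle intrinsically disordered region. The members were all adenosine positions listed as edited in either of 2 Atx2 WT TRIBE libraries or either of 2 Atx2ΔmIDR TRIBE libraries, 4 of the 33 samples of the series. They numbered 952 positions in 738 genes, of 1984 positions listed over all 12 brain TRIBE libraries. Each position was counted once, by chromosome and coordinate on the dm6 genome, with the gene under which it was listed and the percent of reads edited, here called the edit level.

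In both groups the fusion of Atx2, the ADAR catalytic domain and a V5 tag was expressed from a UAS transgene under elav-Gal4, which acts in postmitotic neurons. The heat-sensitive Gal80ts repressor, under the tubulin promoter, held it off until the flies were adult, and young adults were then kept warm for several days. The genotypes are labelled Ataxin-2 WT TRIBE and Ataxin-2 mIDR Domain Deletion TRIBE, and each library came from a pool of dissected brains. The genotypes name no mutation of the native Atx2 gene, so the fusion was added to the native protein. The transgenes were inserted by PhiC31 integrase on the second chromosome, and the level of the fusion in each group was not analysed here. The libraries also differed in layout: the WT libraries had longer reads that keep no strand, and all libraries of altered Atx2 had shorter, strand-specific reads. Genotype and layout cannot be told apart in a comparison of WT with Atx2ΔmIDR. The labels give no separate crosses for the replicates, so tests here measure only the spread between these libraries, which may be technical.

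Ataxin-2 is a conserved RNA-binding protein of the cytoplasm, with Lsm and LsmAD domains, a PAM2 motif that binds poly(A)-binding protein, and disordered regions in its middle and at its carboxy terminus. It takes part in translational control and in the assembly of mRNP granules, and in fly neurons it is known for roles in circadian rhythm and long-term habituation. In TRIBE, the ADAR domain converts adenosines near the protein's contact with an mRNA to inosines, which are read as guanosines. An edited position is therefore a mark left close to where the fusion met the transcript.

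The deletion was made by PCR on the Atx2 coding sequence. The primer pair listed for the deletion is shown, as no sequence of the deleted form itself was available here. Both primers are written 5′ to 3′. Atx2 (FBgn0041188) lies on the plus strand of chromosome arm 3R, from 15408423 to 15417277 in dm6.
mIDR F: cacgtggtcctgcaccaagt
mIDR R: gttgcgcatcaccttaccgc
Atx2 itself was listed as edited in none of the 4 libraries.

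The lists of the WT libraries held 512 and 471 positions, in 407 and 379 genes. Those of the Atx2ΔmIDR libraries held 493 and 286 positions, in 398 and 240 genes. Replicate 1 of the deletion thus lay within the range of the WT libraries, and replicate 2 was far below all others. The mean was 491.5 ± 29.0 (SD, n = 2) in WT and 389.5 ± 146 (SD, n = 2) in the deletion, a ratio of 0.792 that did not pass an exact two-sided permutation test (p = 0.667, where 2 against 2 libraries cannot go below 0.333). Without Atx2ΔmIDR replicate 2 the ratio was 1.003, and without replicate 1 it was 0.582. The shorter list did not come from the deletion library with fewer read pairs, and both deletion libraries had fewer than WT. Divided by read-pair totals, the ratio of means was 1.04 (exact permutation p = 1). The lists give no read number at a position, so single edit levels have no interval.

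The replicates shared fewer positions in the deletion than in WT. The WT libraries shared 312 positions, 60.9% of replicate 1 and 66.2% of replicate 2. The Atx2ΔmIDR libraries shared 198, which is 40.2% of replicate 1 and 69.2% of replicate 2. Replicate 1 of the deletion shared 248 and 241 positions with the WT libraries, and replicate 2 shared 135 and 138. Of the 295 positions listed in Atx2ΔmIDR replicate 1 but not in replicate 2, 95 were listed in both WT libraries and 144 in neither.

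A position was called common when both libraries of a group listed it. Of the 312 common WT positions, 116 (37.2%) were also common in Atx2ΔmIDR and are called kept. A further 103 were listed in 1 Atx2ΔmIDR library, which was replicate 1 for 95 of them and replicate 2 for 8. The other 93 (29.8%) were listed in neither and are called lost. Of the 198 common Atx2ΔmIDR positions, 71 (35.9%) were listed in neither WT library and are called gained, and 11 were listed in 1 WT library. By gene, 256 genes had a common WT position. Of these, 95 also had a common Atx2ΔmIDR position and are called kept, 72 had no Atx2ΔmIDR listing and are called lost, and 89 had some other listing. The common positions of a kept gene need not be the same, and beat-VI, Hrb98DE, CG11638 and Bsg held no kept position. Of the 162 genes with a common Atx2ΔmIDR position, 58 had no WT listing and are called gained. With a group's other library alone, the numbers grew: 211 kept and 215 gained positions without Atx2ΔmIDR replicate 2, 188 lost and 137 gained without its replicate 1, and 215 or 249 lost without WT replicate 1 or 2. These classes were made from the lists themselves, so they are a description and carry no test.

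**Figure D1:**
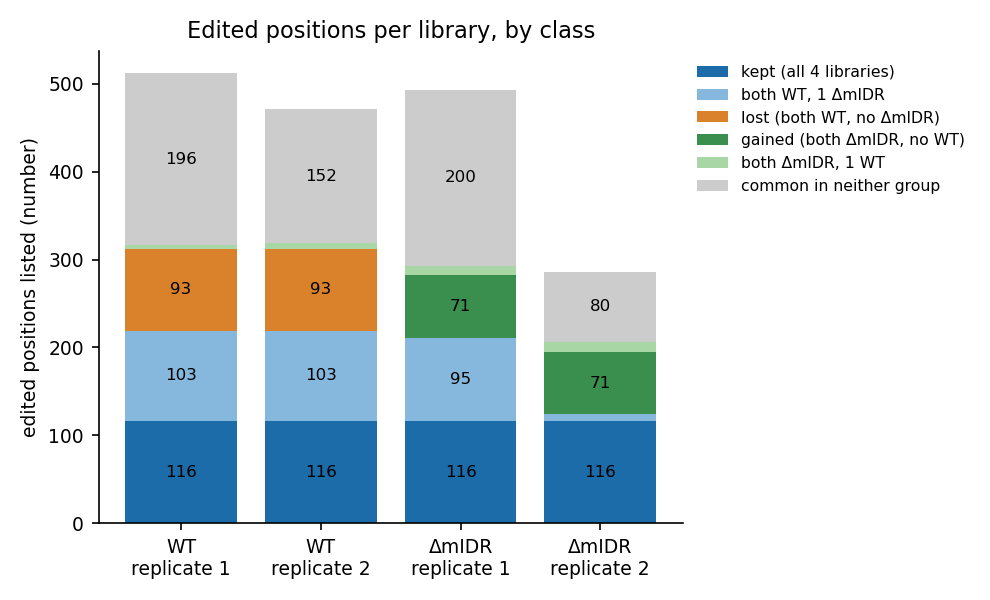
Number of edited positions in each library's list (vertical axis) for the 2 WT and 2 ΔmIDR libraries, with each bar split by class. Atx2ΔmIDR replicate 1 lists 493 positions and replicate 2 lists 286, and the 116 kept positions are in every bar.

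How often a WT position was lost followed its level in WT. Of the 104 common positions with a WT mean from 15% to under 20%, 49 (47.1%) were lost and 16 were kept. Between 20% and under 25%, 28 of 89 (31.5%) were lost, and between 25% and under 30%, 11 of 49 (22.4%). Between 30% and under 40%, 5 of 40 (12.5%) were lost. Of the 30 positions at 40% or more, none was lost and 28 (93.3%) were kept. The list minimum of 15% lies close to the WT level of most lost positions, whose median was 19.7%, against 29.1% for kept positions.

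The most edited kept positions lay in neuropeptide genes, a monoamine transporter gene and a few genes named here by number only. Akh encodes adipokinetic hormone, the fly counterpart of glucagon in energy release, and held the most edited position of all 4 libraries. At position 4142020 of chromosome arm 3L, in the Akh 3′UTR, the levels were 80.4% and 79.0% in WT and 92.2% and 74.3% in Atx2ΔmIDR, so the groups overlapped. NPF, neuropeptide F of feeding and stress circuits, had 55.1% and 56.9% in WT and 66.2% and 41.8% in the deletion at 3R position 16611268. Vmat, the transporter that loads monoamines into vesicles, had 68.5% and 60.0% in WT and 58.1% and 30.3% in the deletion at 2R position 13513578. The long noncoding RNA CR44832 had 52.5%, 51.2%, 57.8% and 36.9% in the same order of libraries, at X position 5791076. In these 4 cases Atx2ΔmIDR replicate 2 was the lowest library.

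CG30158 and CG12605, which are named here by number only, also ranked among the 10 most edited kept positions. CG30158 had 3 kept 3′UTR positions, and at 2R position 6921977 the levels were 57.4% and 61.2% in WT and 52.6% and 41.9% in the deletion. CG12605 had 2, and at 3L position 3954934 they were 53.1% and 58.2% in WT and 45.6% and 36.2% in the deletion. Both deletion libraries were below both WT libraries at the position given for either gene.

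Over the 116 positions listed in all 4 libraries, which lie in 91 genes, the median edit levels were 27.1% and 29.7% in WT and 28.6% and 19.8% in Atx2ΔmIDR. The deletion's mean of medians was lower by 4.22 percentage points (a change of -4.22), which did not pass an exact two-sided permutation test over the library medians (p = 0.667). Without Atx2ΔmIDR replicate 2 the difference was 0.21, in the other direction. Replicate 1 of the deletion was above the WT mean at 52 of the 116 positions, and replicate 2 at 9. Replicate 2 was below replicate 1 at 101 positions, whereas WT replicate 2 was below WT replicate 1 at 55.

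**Figure D2:**
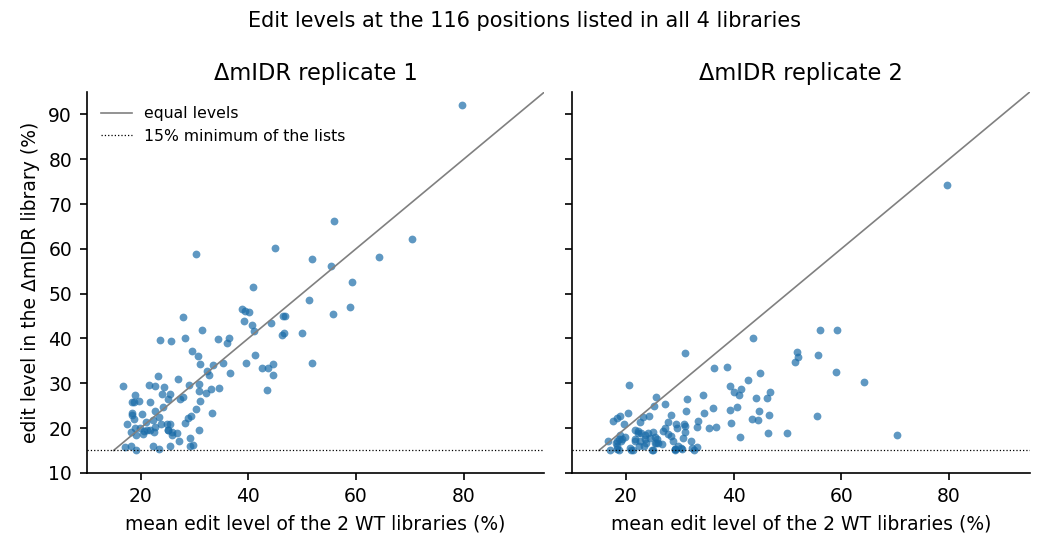
Edit level in each ΔmIDR library (vertical axis, %) against the mean of the 2 WT libraries (horizontal axis, %), with 1 point for each of the 116 positions listed in all 4 libraries. Points of replicate 1 scatter about the line of equal levels, with 52 above it, and 9 points of replicate 2 lie above it.

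Levels at single positions were compared with limma on the log2 odds of editing, log2(percent/(100 − percent)). At an adjusted p under 0.05, 0 of 116 positions were lower in Atx2ΔmIDR and 0 were higher (0% in each direction). At an unadjusted p under 0.05, 12 were lower and 0 higher, and the smallest adjusted p was 0.474. The median log2 odds difference was -0.36. Both deletion libraries were below both WT libraries at 43 positions (37.1% of those compared) and above both at 4 (3.45%). A position enters this comparison only when all 4 levels reach 15%, so weakly edited positions with a larger decrease leave it.

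The 5 non-overlapping positions with the largest negative differences were in FMRFa, Mip, Vmat, Dscam4 and Ccn, all in 3′UTRs. FMRFa encodes the FMRFamide peptides, and at 2R position 9910329 it had 70.4% in both WT libraries and 62.2% and 18.4% in the deletion, a log2 odds difference of -1.97 ± 0.71 (SE; limma adjusted p = 0.474). Mip, the precursor of myoinhibiting peptides, had 48.4% and 51.4% in WT and 41.2% and 18.9% in the deletion at 3L position 17345291. In both genes most of the difference was carried by replicate 2 of the deletion. Dscam4, a cell adhesion molecule of the immunoglobulin superfamily, had 40.9% and 45.9% in WT against 28.4% and 22.1% at 3L position 8281657. Ccn, a secreted matricellular protein, had 43.2% and 45.9% against 31.9% and 21.9% at 3L position 17748778. For Dscam4 and Ccn both deletion libraries were clearly below WT, and the adjusted p was again 0.474.

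Levels were higher in both deletion libraries than in both WT libraries at 4 positions, each with a modest difference. Cbp53E, a neuronal calcium-binding protein, had 24.8% and 26.4% in WT and 39.4% and 27.0% in the deletion at 2R position 16995054. Tbh, the enzyme that makes octopamine from tyramine, had 22.3% and 15.7% in WT and 27.3% and 22.7% in the deletion at X position 8025900. The dopamine receptor gene Dop1R2 had 19.6% and 17.3% in WT and 23.0% and 22.2% in the deletion. For dbo, which encodes a Kelch protein, the levels were 17.8% and 17.3% in WT and 20.8% and 21.5% in the deletion. None of these 4 passed the adjusted threshold in limma.

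Of the 116 kept positions, 20 lay in neuropeptide genes. Of 50 neuropeptide and peptide hormone genes in the list, 16 were listed in at least 1 of the 4 libraries, and 9 were kept: Akh, AstA, FMRFa, Mip, Ms, NPF, Nplp1, natalisin and sNPF. Capa, Dh31, ITP and Trissin were WT targets with some listing in the deletion, CCAP was lost, none was gained, and CCHa1 and Dh44 had no common position. In all, 30 neuropeptide positions were common in WT, of which 27 were listed in Atx2ΔmIDR replicate 1 and 20 in replicate 2. Over all 312 common WT positions these numbers were 211 (67.6%) and 124 (39.7%).

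At the 20 kept neuropeptide positions, the median levels were 36.6% and 42.7% in WT and 41.8% and 23.0% in Atx2ΔmIDR. Replicate 1 was above the WT mean at 14 of them and replicate 2 at 3. Both deletion libraries were below both WT libraries at 4 of 20 and above at 0, where over all 116 positions 37.1% were below and 3.45% above. The median log2 odds difference was -0.12, against -0.36 over all positions.

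Akh had 4 kept positions, more than any other neuropeptide gene. Apart from the position given above, the levels at 3L position 4141911 were 36.6% and 41.0% in WT and 46.7% and 33.6% in the deletion. At 4141932 they were 17.7%, 21.8%, 26.1% and 20.8%, and at 4141941 they were 36.2%, 32.4%, 39.9% and 27.3%, in the same order. WT and deletion overlapped at all 4 positions. Another Akh position, 4142009, was listed only in the deletion, at 26.1% and 17.6%.

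Ms, the precursor of myosuppressin, kept 3 positions, and at 3R position 24343598 it had 42.2% and 46.1% in WT and 43.4% and 26.6% in the deletion. NPF also kept 3, and at 3R position 16611318 it had 41.5% and 48.5% in WT and 60.2% and 32.3% in the deletion. For sNPF, short neuropeptide F, the levels at 2L position 20056019 were 48.4% and 45.1% in WT and 45.0% and 28.0% in the deletion. Replicate 2 of the deletion was below both WT libraries in all 3 cases, and replicate 1 was above them for NPF, between them for Ms and just below them for sNPF.

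Mip had 5 common WT positions, of which 2 were kept and 3 were listed in replicate 1 of the deletion alone. Natalisin, a tachykinin-related peptide of mating behaviour, had 2 kept coding positions and 1 lost 3′UTR position. AstA, allatostatin A, had 26.2% and 17.1% in WT and 29.6% and 17.1% in the deletion at 3R position 24760623. Trissin had 35.9% and 38.9% in WT and 17.0% in replicate 1 of the deletion, with no listing in replicate 2. Capa had 31.9% and 32.4% in WT and 19.5% in replicate 1 alone. For CCAP, crustacean cardioactive peptide, the lost position was in the coding sequence, at 22.1% and 17.4% in WT, and none of the 8 other libraries of altered Atx2 listed it.

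Of 15 genes of monoamine transport and synthesis, 8 were listed and 6 were kept, where 95 of all 738 listed genes and of 256 WT targets were kept. The kept genes were DAT, SerT, Tbh, Trh, Vmat and prt. These are the dopamine and serotonin transporters, the octopamine-making enzyme, the neuronal tryptophan hydroxylase of serotonin synthesis, the vesicular monoamine transporter and portabella, a vesicular transporter related to it. Tdc2, the neuronal enzyme that makes tyramine, was lost. Of 14 common WT positions in these genes, 12 were listed in replicate 1 of the deletion and 8 in replicate 2. At the 8 kept positions the median levels were 30.8% and 30.8% in WT and 39.8% and 23.4% in the deletion.

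SerT had 23.5% in both WT libraries and 15.4% and 17.5% in the deletion at 2R position 24404822, without overlap. DAT had 15.8% and 31.4% in WT and 39.6% and 18.4% in the deletion at 2R position 16558813, with a wide spread in both groups. The prt position, in the coding sequence at 3R 23697692, was the most even, with 37.4% and 35.5% in WT and 40% and 33.3% in the deletion. Trh had 24.2% and 21.3% in WT and 29.4% and 18.8% in the deletion. Tdc2 had 22.0% and 35.7% in WT at its only common position, 2R 6687328 in the coding sequence, and no listing in any of the 10 libraries of altered Atx2. For ple, tyrosine hydroxylase, a 3′UTR position common in the deletion at 16% and 18.2% was listed in neither WT library. The gene was not called gained, because WT listed it at another position.

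**Figure D3:**
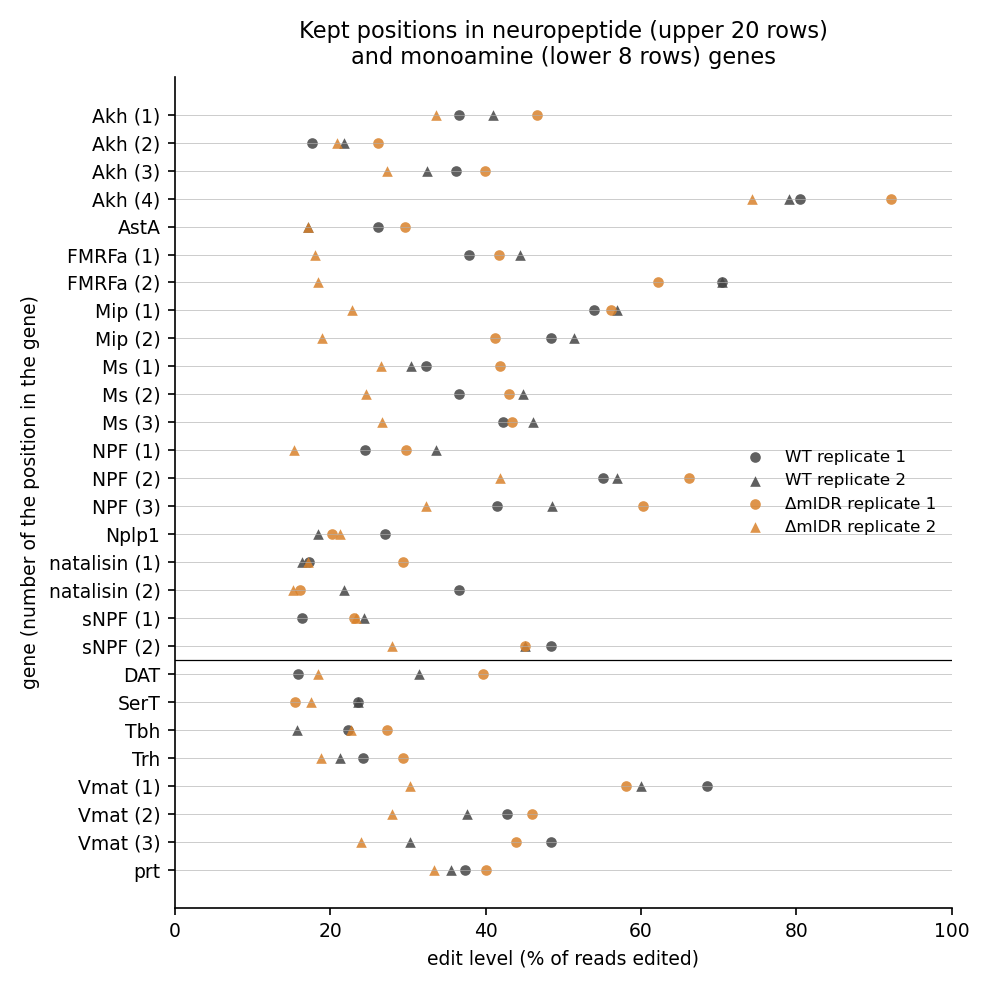
Edit level (horizontal axis, %) in each of the 4 libraries at the 20 kept positions of neuropeptide genes and the 8 kept positions of monoamine genes, 1 position per row, numbered by coordinate within a gene. At FMRFa position 2, replicate 2 of ΔmIDR lies at 18.4% against 62.2% in replicate 1 and 70.4% in both WT libraries.

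The other neuronal lists each held at most 5 kept genes. For scale, 738 genes were listed as edited in all, and 9197 genes were tested in the brain RNA-seq described below. Of 63 genes in the list of neurotransmitter and peptide receptors, 8 were listed as edited. Dop1R2 and Octbeta3R were kept, Nmdar2 and Octbeta1R were lost and GABA-B-R2 was gained. That list did not hold the receptor gene Lgr1, which was lost. Of 35 ion channel genes, 2 were listed and slo, a calcium-activated potassium channel, was gained; that list did not hold the potassium channel genes CG42732, which was lost, and Shawl, a WT target listed in 1 deletion library. Of 44 synaptic vesicle and release genes, 15 were listed, with Ace, Cha and Rab27 kept and Rph lost. Ace, acetylcholinesterase, kept 3 positions, each lower in both deletion libraries, and at 3R 13227971 it had 42.6% and 42.7% in WT and 33.4% and 30.6% in the deletion. Cha, choline acetyltransferase, had 26.6% and 32.2% in WT and 22.7% and 21.0% in the deletion at its kept coding position.

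Of 50 genes in the list for calcium, cAMP and kinase signalling, 11 were listed as edited, 5 were kept and none was lost or gained. That list did not hold MKP-4, which had a lost position, or SNF4Agamma, which had a gained one. The kept genes were Cbp53E, Ggamma30A, Mkp3, dnc and hipk, and CanB and Pkc53E were WT targets with a listing in 1 deletion library. The cAMP phosphodiesterase gene dnc kept 2 positions, and at X 3342370 it had 33.6% and 27.6% in WT and 36.1% and 17.8% in the deletion. Of 49 genes in the list for RNA binding and translation, 14 were listed as edited. Of these, bol, fne, heph and mei-P26 were kept, brat and bru-2 were lost and Syp was gained. That list was not complete. Among others it did not hold Unr, with a kept position, mbl, with a lost one, or A2bp1, Saf-B and eIF-3p66, with gained ones. Of 95 adhesion and guidance genes, 14 were listed, with Dscam4, Ten-a, beat-IIIc, beat-VI and beat-Vc kept, CG34114 lost and NetB gained. In beat-VI the common WT position, at 20.2% and 43.4%, was lost, and another position was gained at 20.4% and 16.1%.

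Of 47 genes in the transcription factor list, 10 were listed as edited, 6 of them with no common position. None of the 4 WT targets in it was kept, where 95 of all 256 WT targets were. That list did not hold mbf1 or CG12605, which had kept positions, or NK7.1, which had a gained one. Lin29 and lola were lost, and in Pdp1 and fru every common WT position was lost while replicate 2 of the deletion listed other positions. The WT means of the lost positions were below 20%, except at lola and at 1 position of Lin29. The 14-3-3epsilon gene, for a scaffold protein of signalling, had 41.9% and 30.8% at 3R 18249736 in WT and 21.9% in replicate 1 of the deletion. It was not listed there in replicate 2. Of 20 markers of glia, fat body, photoreceptors and muscle, none was listed in any of the 4 libraries, and of 5 neuron markers Syt1 was listed. With 738 genes listed beside 9197 tested in brain, so few markers cannot show a difference between cell types.

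Lost genes with the highest WT levels encode proteins of varied roles. CG42732, a potassium channel gene now named SLO2, had 31.7% and 46.4% in WT in its coding sequence, at 2R 10357626. Taspase1, a protease, had 31.0% and 33.3% in its 3′UTR, at 3L 16085688. Su(var)3-7, a heterochromatin protein, had 36.8% and 26.3%, and CG10254 had 25.2% and 35.1%, both in coding sequence. Next were Tdc2, CG10866 at 31.0% and 25.7%, the zinc finger gene Lin29 (dati) at 20% and 35.6%, CG34394 at 26.3% and 27.8% and the receptor gene Lgr1 at 30.6% and 23.3%. The last of these 12 were CG12279 at 32.0% and 20%, the transcription factor gene lola at 27.9% and 23.6% and nbs, a DNA repair gene, at 24.6% and 26.8%.

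The other libraries of altered Atx2 share the deletion's read layout. Of the 93 lost positions, 68 (73.1%) were listed in at least 1 of the 4 libraries of Atx2ΔLsm or Atx2ΔLsmAD, which lack either of the structured domains, and 30 were in both Atx2ΔLsm libraries. All 116 kept positions were in at least 1 of these 4 libraries, and 99 were in both of Atx2ΔLsm. In all 4 of them, 7 lost positions were listed, in lola, Drep-3, mam, sbb, CG8602, tub and CG11000. At the lola position the levels were 34.6% and 24.1% in Atx2ΔLsm and 19.1% and 24.3% in Atx2ΔLsmAD.

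None of the 8 other libraries of altered Atx2 listed 23 of the lost positions. These included the strongest, CG42732, and Taspase1, Tdc2, Lgr1, CG10866, nbs and CCAP. Of the 12 lost genes described above, the lost position of 7 was absent from all 8.

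The part of the transcript in which a position lies differed between the classes. Of kept positions, 91 of 116 (78.4%, 95% Wilson interval 70.1 to 84.95%) lay in a 3′UTR and 21 (18.1%) in coding sequence. Of lost positions, 50 of 93 (53.8%, 43.7 to 63.5%) lay in a 3′UTR and 33 (35.5%) in coding sequence. Of gained positions, 26 of 71 (36.6%, 26.4 to 48.2%) lay in a 3′UTR and 36 (50.7%) in coding sequence. These intervals cover counting error only, and positions in the same gene are not independent. The share of gained positions in a 3′UTR differed between clustered and other positions, as given below.

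Read from the side of WT, 50 of 216 common 3′UTR positions (23.1%, 18.0 to 29.2%) were lost and 33 of 74 common coding positions (44.6%, 33.8 to 55.9%). The median WT level was 22.5% in the 3′UTR and 22.4% in coding sequence. In the 5′UTR, 8 of 11 were lost and none was kept. Among positions with a WT mean of 25% or more, 3 of 16 lost positions were in a 3′UTR and 60 of 77 kept positions. Among those under 25%, the numbers were 47 of 77 lost and 31 of 39 kept.

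Gained positions stood apart in where they lay on the chromosomes and in the other libraries that listed them. The 12 gained genes with the highest deletion level were led by Syp, which encodes an hnRNP-like RNA-binding protein. It had 83.3% and 53.8% at 3R 20783187 and 85% and 50% at 3R 20783416, both in the 5′UTR, and 35.0% and 19.0% in the coding sequence. The gene spg, a DOCK-family exchange factor, had 77.5% and 44.0% outside annotated exons. CG7967 (Vta1) had 39.1% and 58.8% at 3L 1652568, in coding sequence, so replicate 2 was the higher there. Atpalpha, the sodium pump subunit, had 48.7% and 39.2%, and the peroxidasin gene Pxn had 52.8% and 35.0%. NetB, a netrin guidance cue, had 44.1% and 42.3% in its 3′UTR.

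CG12093 followed with 32.4% and 43.6%, CG13630 with 46.7% and 25.0%, CG17271 with 38.4% and 25.5% and CG9977 with 27.3% and 34.8%, all in coding sequence. PVRAP, at 44.1% and 17.3%, and Saf-B, at 34.1% and 27.3%, closed the 12. Over all 71 gained positions the medians were 27.0% and 20.8%, and replicate 2 was above replicate 1 at 18 of 71, against 15 of 116 kept positions.

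The gained positions were close together on chromosome 3. Of 71, 66 (93.0%) lay on 3L or 3R, against 57 of 116 kept (49.1%) and 50 of 93 lost (53.8%). The median distance to the nearest gained position in another gene was 42.7 kb, against 432 kb among kept and 379 kb among lost positions. With runs defined as at least 5 gained positions with gaps of at most 500 kb, 47 of 71 fell in 6 runs that span 3.66 Mb in all. The same 3.66 Mb held 4 kept and 5 lost positions.

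**Figure D4:**
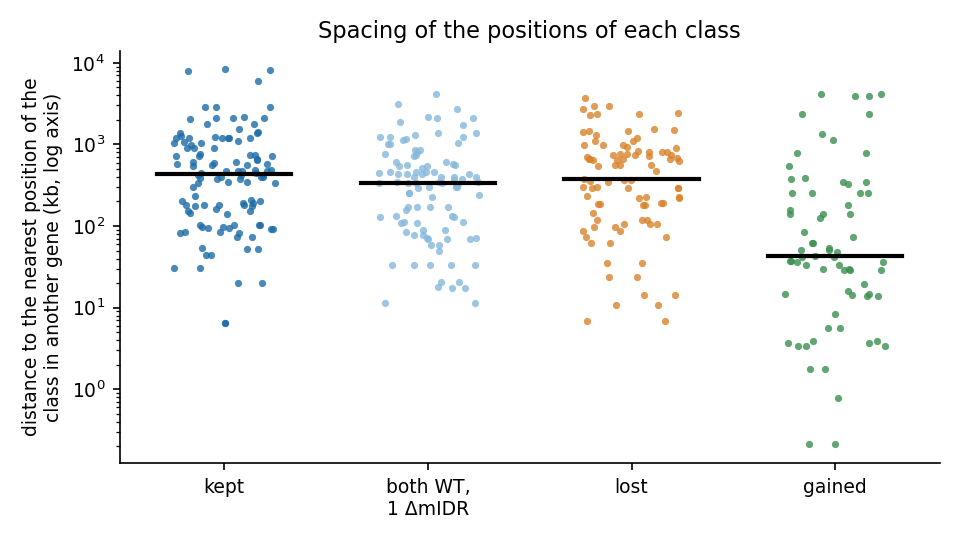
Distance from each position to the nearest position of the same class in another gene (kb, log axis), by class, with the median as a bar. Gained positions have a median of 42.7 kb, against 432 kb for kept and 379 kb for lost positions.

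The longest run lay on 3R from 20783187 to 21786128 and held 19 gained positions, no kept position and 1 lost position. Its genes included Syp, Atpalpha, Rlip, Cortactin, SNF4Agamma, mod(mdg4), GABA-B-R2 and CASK/CRG. GABA-B-R2, a metabotropic GABA receptor, had 24.8% and 20.3% at 21771021 and 24.7% and 17.9% at 21771772. On the same run, the pair of positions listed under CASK/CRG had 17.4% and 29.7% and 15.7% and 22.5%, so replicate 2 was higher. A second run of 6 positions on 3L, from 2603619 to 2788120, held Pxn, CG42245/MEP-1, CG9977, CG12093 and CG43444.

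Many gained positions were also listed where few other positions were. The libraries of Atx2ΔcIDR, without the carboxy-terminal disordered region, and of Lsm+LsmAD, with these domains alone, have short lists of 87 to 116 positions. Of the gained positions, 45 of 71 (63.4%) were in at least 1 of these 4 libraries, against 18 of 116 kept (15.5%) and 2 of 93 lost (2.15%). Replicate 1 of Lsm+LsmAD listed 37 of the 71 gained positions, 17 of them in the longest run, and 0 of the 116 kept or 93 lost positions. Replicate 2 of Lsm+LsmAD listed 16 of the 71, 3 of them in the longest run, and likewise 0 kept or lost positions. At Syp 20783416 replicate 1 had 85.4%, beside 85% in Atx2ΔmIDR replicate 1. The longest run's 19 positions were all in Atx2ΔLsmAD replicate 1, and 14 were in its replicate 2. By contrast, the 6 gained positions of the 3R run from 28086187 to 28854140, which holds spg, were in no other library of altered Atx2.

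**Figure D5:**
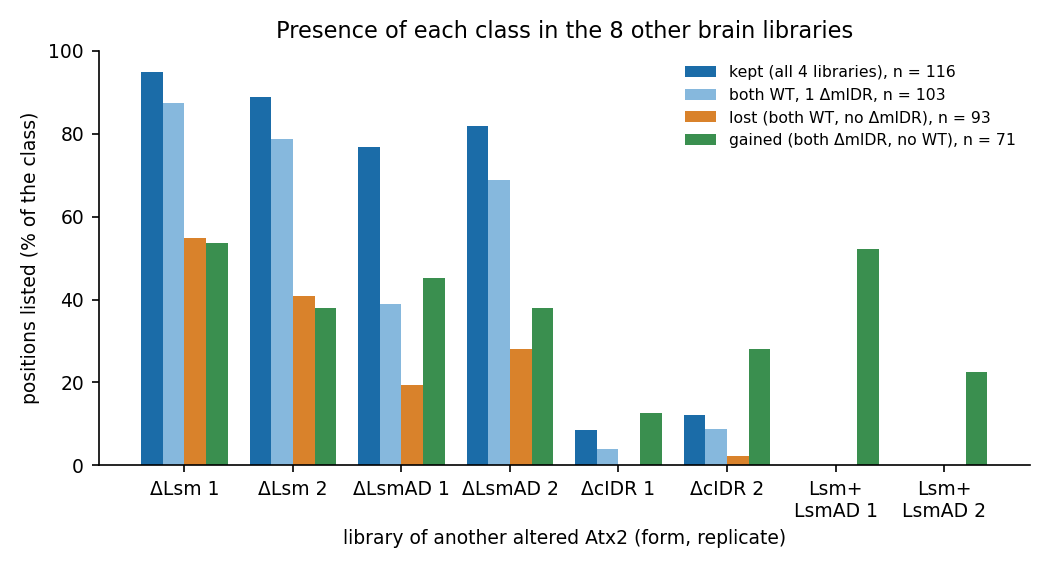
Share of each class (vertical axis, % of the class) listed in each of the 8 libraries of the other altered forms of Atx2. Kept positions are frequent in ΔLsm and ΔLsmAD (76.7% to 94.8%) and absent from Lsm+LsmAD, where 52.1% and 22.5% of gained positions are listed.

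The lists do not separate an edited adenosine from an A-to-G difference in the genome of a stock, and the part of such differences in the gained positions was not tested. Brains of the Gal4 and UAS control flies were not used here. Without the positions of the 6 runs, 24 gained positions remained, in 24 genes, and 21 genes were classed as gained. Without positions listed in any Atx2ΔcIDR or Lsm+LsmAD library, 26 gained positions remained, and 21 genes were classed as gained. With both left out, 11 remained: PVRAP, CG10289, ple, eRF1, CG1105, Vha13, eIF-3p66, Rpn9, CG42541, CG1402 and NetB. Of these 11, 6 were also in an Atx2ΔLsm or Atx2ΔLsmAD library.

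RNA-seq of brains with Atx2 knocked down gave a readout that did not choose the classes. It compared 3 libraries of Atx2 RNAi driven by Elav Gal4 with 3 of the Elav Gal4 control. Totals ran from 11169973 to 14324466 counts in genes. The study describes the RNAi flies as carrying Gal80ts too, with the knockdown induced in adults. Control replicate 1 stood apart, with 34.6% of its counts not assigned to a gene against 15.8 to 17.7% in the other 5 libraries. Atx2 itself was at 287, 302 and 316 CPM (counts scaled to library size with TMM) in the control and 201, 252 and 264 CPM with RNAi. The groups did not overlap, and the log2 fold change of -0.34 had an adjusted p of 0.058 in edgeR's quasi-likelihood test, above the threshold of 0.05 (0.018 in DESeq2). Elav-Gal4 drives the knockdown in neurons, and in whole brain fewer cells of a type and less RNA per cell cannot be told apart.

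Of 9197 genes tested, 18.6% fell and 23.1% rose at an adjusted p under 0.05. Of 95 kept genes, 41 fell (43.2%) and 7 rose, with a median log2 fold change of -0.25 against 0.06 over all genes tested. Of 70 lost genes tested of 72, 27 fell (38.6%) and 6 rose, with a median of -0.27. Of 54 gained genes tested of 58, 17 fell (31.5%) and 11 rose, with a median of -0.11. With library size alone as the scaling, the median of all genes shifted up by 0.21, and 935 genes fell and 3119 rose. The counts were then 27 and 13 for kept genes, 16 and 14 for lost genes and 8 and 17 for gained genes. Fewer gained genes passed without control replicate 3 (9 fell and 7 rose), RNAi replicate 1 (9 and 7), RNAi replicate 2 (10 and 6) or RNAi replicate 3 (10 and 6). Of kept genes, 4, 2, 4 and 3 then rose. Without control replicate 1, 43 kept genes fell and 5 rose, 27 lost genes fell and 5 rose, and 16 gained genes fell and 10 rose.

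All 3 classes were expressed above the typical gene. The median log2 CPM in the control libraries was 7.17 ± 0.03 (SD, n = 3) for kept genes, 6.97 ± 0.06 for lost genes and 6.95 ± 0.13 for gained genes, against 4.55 ± 0.06 over all genes tested. A gene of higher expression is more readily called, and the part of expression level in the shares above was not tested.

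Among kept genes, 4 of 6 of monoamine handling fell and 2 of 9 of neuropeptides rose with non-overlapping groups. Over all 9197 genes tested, 18.6% fell and 23.1% rose. The RNAi libraries were all below the control libraries for 25.4% of these genes and all above for 32.3%. Akh also passed as a rise but with overlapping groups, so the 2 of 9 and the 23.1% follow unlike rules. Of all 95 kept genes, 7 (7.37%) rose at an adjusted p under 0.05. The difference between the lists was not tested. Vmat was at 1854, 1331 and 1736 CPM in the control and 650, 788 and 907 CPM with RNAi, a log2 fold change of -1.07 (edgeR adjusted p = 0.0036). SerT fell by 0.88, prt by 0.77 and Tbh by 0.50 on the log2 scale, and Trh and DAT did not pass the test. Cbp53E fell by 1.35 on the log2 scale, from 1283, 1501 and 1494 CPM to 556, 544 and 584 CPM. Mip rose, from 55.8, 70.5 and 73.9 CPM to 142, 132 and 144 CPM, a log2 fold change of 1.06 (edgeR adjusted p = 0.00092). Akh at 30.6, 45.9 and 27.4 CPM in the control and 154, 39.5 and 81.9 CPM with RNAi passed the test (log2 fold change 1.40, edgeR adjusted p = 0.040) although the groups overlapped, and the adjusted p was 0.071 to 0.13 without control replicate 1, control replicate 3, RNAi replicate 1 or RNAi replicate 3. NPF rose by 0.64 on the log2 scale, from 64.1, 44.5 and 38.3 CPM to 77.7, 75.7 and 75.5 CPM, with an adjusted p of 0.025. That p was 0.062 to 0.083 in 5 of 6 fits with a library left out, all but the fit without control replicate 1. Nplp1 fell by 0.36 (adjusted p = 0.011, and 0.17 with library size alone), and AstA, FMRFa, Ms, natalisin and sNPF did not pass the test.

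In the gained class, Atpalpha fell, from 12505, 11736 and 13615 CPM to 4843, 5915 and 6433 CPM, a log2 fold change of -1.14 (edgeR adjusted p = 0.0020). CG17271 rose, from 20.9, 16.04 and 15.6 CPM to 36.5, 32.4 and 35.0 CPM. Syp, at 778, 520 and 674 CPM in the control and 699, 796 and 831 CPM with RNAi, overlapped between groups. In the lost class, CG34394 fell by 0.52 on the log2 scale, and CG42732, Su(var)3-7, Tdc2 and Taspase1 did not pass the test.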

How the data were processed

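TRIBE libraries of adult brain (2 Atx2 WT, 2 Atx2ΔmIDR, and 8 of other altered forms) and RNA-seq of 3 Atx2 RNAi and 3 control brain samples were used. The deposited lists give the percent of reads edited at each position; the authors aligned reads with TopHat2 to dm6 and applied minimums of 20 reads and 15% edited against control brains. Layouts differed between WT and altered forms. The authors deposited gene counts made with STAR and HTSeq. Rows of counts not assigned to a gene held 34.6% in control replicate 1 and 15.8 to 17.7% in the others, and were left out.

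Groups came from the labels, and read-pair totals from the supplement of the study. Positions listed in all 4 libraries were compared with limma 3.58.1 on log2 odds, library values with exact permutation tests, and counts with edgeR 4.0.16 (filterByExpr, TMM, quasi-likelihood), all with Benjamini-Hochberg adjustment at 0.05 where many features were tested. DESeq2 1.42.0 was an alternative. Both fits were tested on simulated data. For limma the simulated shifts were larger than any difference seen here, so power for the observed differences was not tested. Places came from Ensembl release 115, in which 735 of 738 genes were matched. A gene name turned into a date was repaired in 1 case.

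Named genes were those with 3 or more common positions, the 10 most edited kept positions, up to 5 non-overlapping positions with the largest difference each way, the 12 lost and 12 gained genes with the highest levels, and listed neuropeptide and monoamine genes. Other names, among them the members of the other lists and of the runs, were chosen after their values were seen. Members and lists were chosen with earlier results of these data known.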

Additional observations from a re-analysis of the deposited data

How the results depend on the processing

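Counts of kept, lost and gained positions depended on the listing rule. With a minimum of 20% they were 48, 55 and 36 positions (39, 44 and 32 genes), and with 30% they were 14, 10 and 8 (10, 9 and 7 genes). With a listing in either library of a group they were 300, 371 and 281 positions (258, 264 and 216 genes). With lost defined as not common in the other group, 196 positions and 161 genes were lost. In 2 alternatives chosen after seeing the data, gained positions numbered 26 without those in Atx2ΔcIDR or Lsm+LsmAD libraries and 24 without the runs, with 21 gained genes in both. Leaving out 1 library gave 120 to 211 kept, 101 to 249 lost and 75 to 215 gained positions, and 99 to 173, 83 to 178 and 62 to 164 genes.

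The ratio of listed positions reversed when divided by the study's read-pair totals (1.04, and 1.07 for genes), and ranged from 0.582 to 1.003 (genes 0.611 to 1.01) with 1 library left out. The difference in median level ranged from -8.64 to 0.21, and limma called 0 to 1 lower positions. The 1 call came without Atx2ΔmIDR replicate 1, and the smallest adjusted p ranged from 0.0394 to 0.982 over alternatives. The cause was not tested.

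In RNAi brains, library size alone gave 27 kept genes that fell and 13 that rose, 16 and 14 lost, and 8 and 17 gained, and median log2 CPM of 7.07 for kept and 6.87 for lost genes. With 1 library left out, 2 to 6 kept genes rose, and 9 to 16 gained genes fell and 6 to 10 rose. Replicate numbers were not seen to pair the samples. Deviations from the group mean correlated at -0.09, -0.20 and -0.04 between same-numbered control and RNAi samples, a weak check with so few libraries. With the replicate block, 4 kept genes rose, 8 gained genes fell, and limma called 0 positions.

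Edit lists hold no read numbers, so the error of a single level is unknown, and absence from a list is not absence of editing.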
